A study of Arabidopsis thaliana with 8 samples.

Results

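The 37 genes described here encode the enzymes and regulators of the Calvin-Benson cycle (21 genes) and the enzymes and transporters of photorespiration (16 genes) in leaves of Arabidopsis thaliana. They were taken by identifier from the 38088 gene identifiers listed in each library, and all 37 were found. The libraries are messenger RNA sequencing of rosette leaves of the accession Col-0 in 4 groups of 2. All plants spent 12 d on soil and then 10 d in hydroponics on a diluted nutrient solution with 1 µM copper sulfate. For a further 10 d, control plants stayed on that solution, copper-deficient plants received no copper sulfate and 10 µM of the copper chelator bathocuproine disulfonate, iron-deficient plants received no iron chelate, and doubly deficient plants received neither metal, with the chelator present. The labels give all plants an age of 20 d, which is less than the growth and treatment periods together. Leaves were taken 4 h after the lights came on. Nothing in the labels ties the 2 libraries of a group to different cultures, so p-values measure the spread between these libraries, which may be technical. The comparisons ask how the messenger RNA of carbon fixation and of the pathway that repairs its side reaction stood when copper, iron or both were withheld.

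In the Calvin-Benson cycle, Rubisco adds carbon dioxide to ribulose bisphosphate, the product is reduced to triose phosphate with the ATP and NADPH made in the light reactions, and most of the triose phosphate is rearranged to regenerate the acceptor. Rubisco also accepts oxygen, which yields phosphoglycolate. Photorespiration turns that compound back into a cycle intermediate through reactions in chloroplasts, peroxisomes and mitochondria, and its mitochondrial step, glycine decarboxylase, releases carbon dioxide and ammonia. The light reactions that feed the cycle depend on iron in photosystem I, the cytochrome complex and ferredoxin. Most enzymes of the cycle itself contain no iron.

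Values are FPKM, which are fragment counts scaled to transcript length and library total, so levels can be set side by side between genes. The 8 libraries had relative depths of 0.733 to 1, estimated from how wide the authors' bounds are, with the deepest library set to 1. None of the 37 genes was listed at 0, and their values ran from 52.8 FPKM (DIT2.1) to 18769 FPKM (RBCS1A). Read under a Poisson model, the bounds implied at least 741 fragments for a member in any library and an error of at most 3.67% of the value. These implied numbers did not follow the level. Their lowest value was 2294 for RBCS1A and 14352 for SHM1, which stood at 966 to 1415 FPKM. Neither they nor the relative depths can therefore be taken as counts of fragments. Carbonic anhydrase CA1 and the antenna genes LHCB1.3 and LHCB2.2, which mark leaf mesophyll, together stood at 29869 to 30466 FPKM in controls, 30969 to 32187 without copper, 9154 to 12187 without iron and 9126 to 9691 without both. The markers of dividing cells CYCB1;1, KNOLLE and CDKB2;1 together stood at 6.22 to 8.04, 6.21 to 20.8, 47.6 to 49.8 and 56.7 to 60.5 FPKM in the same order. Summed markers of senescent leaves ran from 24.4 to 57.5 FPKM in controls, 19.5 to 31.9 without copper, 45.4 to 47.6 without iron and 70.9 to 79.8 without both. Those of guard cells ran from 1606 to 1745, 2042 to 2136, 1395 to 1593 and 1049 to 1063, and those of phloem from 71.8 to 79.1, 84 to 85.3, 83.7 to 93.7 and 47.2 to 49.2. Within these sums the markers did not move together. TGG1 made up most of the guard cell sum (1728 and 1591 FPKM in controls, 1024 and 1035 without both). FAMA (11 and 9.23, then 16.1 and 18.6) and MYB60 (6.57 and 5.33, then 9.08 and 8.98) lay higher. In phloem SUC2 lay lower (71.7 and 63.6, then 34.4 and 36.5) and APL higher (7.34 and 8.16, then 12.8 and 12.7). The senescence marker SAG12 stayed at or under 0.0934 FPKM. Flower markers stayed at or under 5.9 FPKM and root markers at or under 43.9 FPKM in all 8 libraries, and the root marker EXPA7 was at 0 throughout. The part of these shifts in the results below was not tested, and in whole leaves fewer cells of a type and less RNA per cell cannot be told apart. Nuclear coding transcripts held 69.2% of the FPKM in iron 1 and 75.4% in iron 2, libraries being named by group and number, against 75.2 to 93.4% in the other 6. All 37 genes lay higher in iron 2 than in iron 1, and 35 of 37 lay higher in double 2 than in double 1, and in control and copper deficiency 28 and 24 of 37 were higher in library 2. Chloroplast transcripts held 0.278% of the FPKM in copper 2 and 5.83 to 11.2% in the other 7 libraries.

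Several members are close copies of each other, which bears on how far each can be measured alone. The small subunit of Rubisco is encoded by 4 genes, RBCS1A (AT1G67090) on chromosome 1 and RBCS3B (AT5G38410), RBCS2B (AT5G38420) and RBCS1B (AT5G38430), which stand next to each other within 8.33 kb of chromosome 5. The most divergent 60 coding bases of the family, aligned without gaps, are printed in the RefSeq sequence of TAIR10.1, with bases that differ from RBCS1A in capitals.
RBCS1A, coding bases 22 to 81: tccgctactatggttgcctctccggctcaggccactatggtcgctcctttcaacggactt
RBCS1B, coding bases 22 to 81: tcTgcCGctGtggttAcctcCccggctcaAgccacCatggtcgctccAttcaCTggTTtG
RBCS2B, coding bases 22 to 81: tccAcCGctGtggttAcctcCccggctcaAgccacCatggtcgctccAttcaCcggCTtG
RBCS3B, coding bases 22 to 81: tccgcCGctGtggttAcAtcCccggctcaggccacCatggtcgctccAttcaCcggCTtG
In this stretch the chromosome 5 genes differ from RBCS1A at 12 to 14 bases and share most of those differences. Over the whole coding sequence RBCS1A was 90.4 to 90.6% identical to the other 3, while these were 96.7 to 97.3% identical to each other, and RBCS1B and RBCS3B share an unbroken run of 230 bases. The family sum and the share of RBCS1A are therefore firmer than the split among the chromosome 5 genes. The coding sequence of PGLP1 (AT5G36700) is identical over all 1089 bases to that of its copy PGLP1B (AT5G36790), which is not a member. Reads from that sequence cannot be told apart, and the untranslated regions were not compared. The values of the pair in every library, 122 to 287 FPKM for PGLP1 and 116 to 273 FPKM for PGLP1B, ran side by side. The pair GOX1 and GOX2 was 92.4% identical, GDCH and GLDH3 88.2%, PGK1 and PGK2 87.2%, GAPA and GAPA-2 85.8%, GLDP1 and GLDP2 85.6%, FBA1 and FBA2 84.1% and CP12-1 and CP12-2 74.5%.

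Promoters of light-regulated genes often hold a G-box (CACGTG) flanked by I-boxes (GATAAG). Both were searched on both strands in the 250 bases before the annotated start of each gene, in the TAIR10.1 sequence of RefSeq, together with CCAATC and the evening element AAAATATCT. These motifs do not overlap one another in letters. The G-box was found before RBCS2B, PRK and HCEF1 (3 of 21 Calvin-Benson genes) and before GGT1 and GLDP1 (2 of 16 photorespiration genes), against 6.49% of 27443 coding genes. The I-box was found before RBCS2B, RCA, HCEF1 and CP12-2 and before GLDP2 (12.3% of all), CCAATC before RCA and EMB3119 and before GOX1 and GLDP2 (10.2%), and the evening element before no member (2.36%). Of the 37 windows 15 overlap a neighbouring gene. The windows printed are those of RBCS2B and HCEF1, which hold both light-response motifs and lay lower without iron, and of GLDP1 and GLDP2, which lay higher. Motifs are in capitals, and CTTATC is the I-box read from the other strand.
RBCS2B, chr5:15382072-15382321, minus strand: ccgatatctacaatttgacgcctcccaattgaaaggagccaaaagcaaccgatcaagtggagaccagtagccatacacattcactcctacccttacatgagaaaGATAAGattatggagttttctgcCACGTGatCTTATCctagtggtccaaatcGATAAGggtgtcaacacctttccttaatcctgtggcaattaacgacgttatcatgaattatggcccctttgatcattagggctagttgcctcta
HCEF1, chr3:20016587-20016836, plus strand: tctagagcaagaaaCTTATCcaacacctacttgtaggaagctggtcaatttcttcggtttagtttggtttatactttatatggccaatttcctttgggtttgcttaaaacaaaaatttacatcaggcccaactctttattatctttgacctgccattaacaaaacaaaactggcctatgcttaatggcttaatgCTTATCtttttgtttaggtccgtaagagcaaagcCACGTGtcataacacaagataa
GLDP1, chr4:15931423-15931672, minus strand: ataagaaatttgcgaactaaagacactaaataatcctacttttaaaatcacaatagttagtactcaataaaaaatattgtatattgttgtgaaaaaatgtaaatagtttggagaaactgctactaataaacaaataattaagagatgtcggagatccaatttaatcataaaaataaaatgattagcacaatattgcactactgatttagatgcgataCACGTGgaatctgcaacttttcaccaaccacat
GLDP2, chr2:11114292-11114541, minus strand: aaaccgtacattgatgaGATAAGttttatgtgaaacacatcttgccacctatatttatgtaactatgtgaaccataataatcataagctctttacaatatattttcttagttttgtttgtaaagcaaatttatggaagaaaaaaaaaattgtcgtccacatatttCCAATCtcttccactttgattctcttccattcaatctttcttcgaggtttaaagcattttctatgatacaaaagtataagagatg
Before RBCS2B the G-box starts 123 bases ahead of the annotated start, and I-boxes start 146, 115 and 94 bases ahead, while the window of GLDP1 holds a G-box alone. A match describes letters in these windows and does not show that a factor binds there. Sequence inside the annotated genes and further upstream was not searched. A window without a match, such as that of RBCS1A, therefore does not show that the promoter lacks the motif.

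Without copper the messenger RNA of both pathways stayed close to control. Of 21 Calvin-Benson and 16 photorespiration genes, 0 were called by limma at an adjusted p under 0.05, and 0 passed an unadjusted p of 0.05. Over all 19171 genes tested 0.073% were called lower and 0.11% higher. The median log2 difference from control was 0 for the Calvin-Benson genes and 0.07 for the photorespiration genes, against 0.01 for all genes. The control libraries held RPE at 588 and 644 FPKM and the copper-deficient ones at 624 and 607 FPKM, with RCA at 5978 and 5965 FPKM against 6023 and 5815 FPKM. The differences of single members ran from -0.23 ± 0.16 (SE) for CP12-1 (limma adjusted p = 0.946) to 0.20 ± 0.16 for GAPA-2 (0.946). Across the 37 genes the 95% intervals of the difference lay between -0.71 (RBCS1B) and 0.59 (GAPA-2), so changes of that size in single genes are not shut out.

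**Figure D1:**
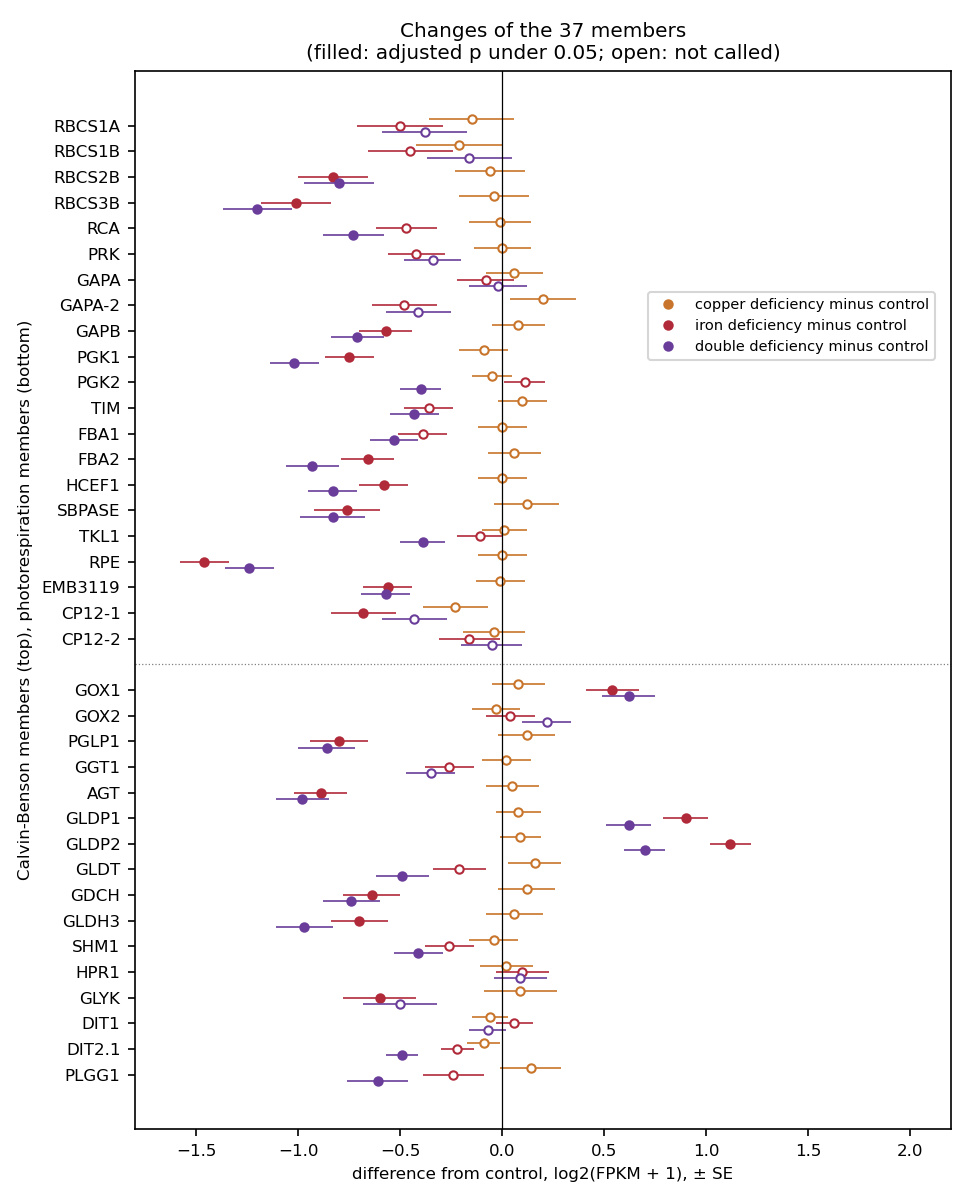
Log2 difference from control (± SE from limma, on log2(FPKM + 1)) of each of the 37 genes in copper, iron and double deficiency, with filled points for called differences. The copper points lie within 0.23 of 0, most iron and double points lie below 0, and GLDP1, GLDP2 and GOX1 lie above 0 in both.

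Without iron 10 of 21 Calvin-Benson genes fell and 0 rose, where 6.85% of all genes were called lower and 27.2% higher. Their median log2 difference was -0.50, which is -0.76 relative to the all-gene median of 0.27, and all 21 lay below that median. The genes of Rubisco, of the reduction of phosphoglycerate and of the regeneration of ribulose bisphosphate were all represented among those that fell. Fewer fell without control 1, control 2 or iron 1. With no filter on low values 5 fell, where 1040 of 33459 genes were called lower. Under median-ratio scaling 18 fell, where 2776 of 19092 genes were called lower. In photosystem I, which supplies electrons for the cycle, 12 of 12 nuclear subunit genes fell, and their median lay at -1.63 relative to all genes. With no filter PSAE1, PSAK, PSAL and PSAO of these lost their calls (limma adjusted p = 0.0788 to 0.167), and under quantile normalization PSAE1, PSAL and PSAO did (0.0524 to 0.227). The largest falls of this list were those of PSAN and PSAF. PSAN stood at 3463 and 3775 FPKM in controls and 182 and 275 without iron (-4.01 on the log2 scale), and PSAF at 3948 and 3910, then 498 and 736.

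The small subunit genes of Rubisco are the most abundant members. RBCS1A stood at 16686 and 18769 FPKM in controls, 17592 and 14518 without copper, 11448 and 13724 without iron and 12824 and 14438 without both. RBCS3B stood at 8406 and 9267, 9182 and 8016, 4024 and 4746, and 3612 and 4098 FPKM in the same order. All 4 libraries without iron lay below the 4 libraries with iron in both genes, by a narrow margin in RBCS1A and by far in RBCS3B. RBCS2B stood at 4319 and 4625 FPKM in controls, 4591 and 3990 without copper, 2272 and 2785 without iron and 2355 and 2794 without both. RBCS1B stood at 3643 and 4728, 3910 and 3288, 2708 and 3397, and 3430 and 4013 FPKM, so its groups overlap. In iron deficiency RBCS3B fell by 1.01 ± 0.17 on the log2 scale (limma adjusted p = 0.00695) and RBCS2B fell by 0.83 ± 0.17 (0.013). RBCS1A was at -0.50 ± 0.21 (0.119) and RBCS1B at -0.45 ± 0.21 (0.138), with 95% intervals from -1.01 to 0.02 and from -0.95 to 0.04, and both were called lower under median-ratio scaling (-0.79, 0.0372, and -0.75, 0.0475). The call of RBCS3B was lost without control 2 (0.0557), that of RBCS2B without control 1 or control 2 (0.0504 and 0.081), and both with no filter on low values (0.371 and 0.23). Under quantile normalization RBCS2B was at -0.13 (0.641).

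The makeup of the family shifted with iron. RBCS2B and RBCS3B together held 38.5 and 37.2% of the summed RBCS FPKM in controls, 39 and 40.3% without copper, 30.8 and 30.6% without iron and 26.9 and 27.2% without both. RBCS1A held 50.5 and 50.2%, 49.9 and 48.7%, 56 and 55.7%, and 57.7 and 57% in the same order. In both shares the libraries without iron did not overlap those with iron, and in the first the doubly deficient libraries lay below the iron-deficient ones. RBCS1B held 11 and 12.6%, 11.1 and 11%, 13.2 and 13.8%, and 15.4 and 15.8% in the same order. The share of RBCS2B and RBCS3B rests on their split from RBCS1B, which is less firm than the share of RBCS1A. Ratios within a library are not touched by the scaling between libraries, and these differences between groups were not tested. RCA (AT2G39730), the activase that frees Rubisco of bound sugar phosphates, stood at 5978 and 5965, 6023 and 5815, 3963 and 4718, and 3425 and 3794 FPKM. Its fall was not called in iron deficiency (-0.47 ± 0.15, adjusted p = 0.0565) and was called without both metals (-0.73 ± 0.15, 0.00992), the latter not without control 1, control 2 or double 1 (0.0551, 0.0635 and 0.0745), with no filter (0.389) or under quantile normalization (-0.20, 0.443). The step from iron to double deficiency in RCA was itself not called (-0.26 ± 0.15, 0.382).

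**Figure D2:**
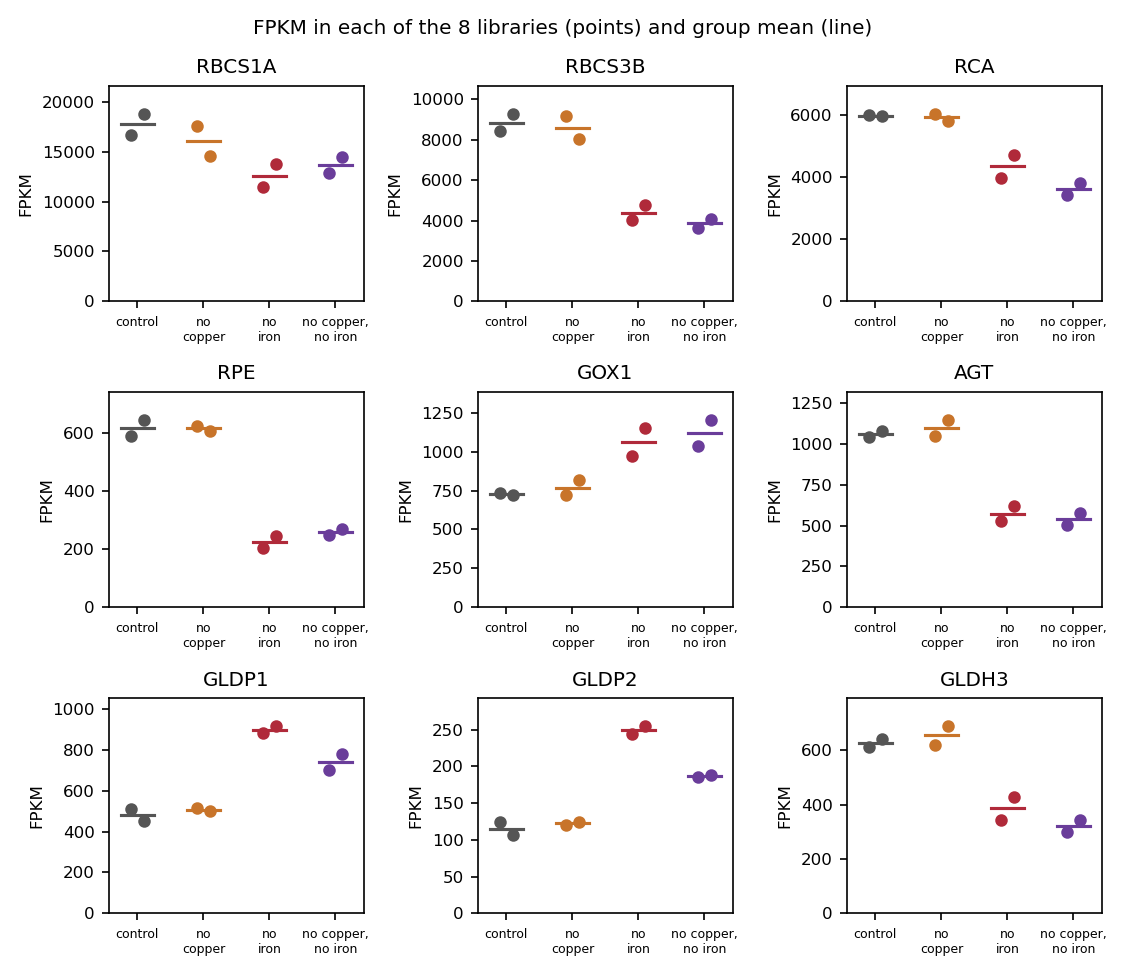
FPKM of 9 genes in each of the 8 libraries (points) with the mean of each group (lines), each panel starting at 0. RBCS3B, RPE, AGT and GLDH3 separate libraries with iron from those without it downward, and GOX1, GLDP1 and GLDP2 upward.

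Among the regeneration genes 5 of 8 fell in iron deficiency, where 6.85% of all genes were called lower. RPE (AT5G61410), the ribulose-phosphate epimerase, whose counterpart in Escherichia coli works with ferrous iron, showed the largest fall of all 37 genes. It stood at 588 and 644 FPKM in controls, 624 and 607 without copper, 203 and 246 without iron and 249 and 271 without both. The fall was 1.46 ± 0.12 on the log2 scale in iron deficiency (limma adjusted p = 0.000635), and it kept its call under all 15 alternative settings. SBPASE (AT3G55800), the bisphosphatase that commits carbon to regeneration, fell from 549 and 606 to 308 and 376 FPKM (-0.76 ± 0.16, 0.0151). The aldolase FBA2 (AT4G38970) fell by 0.66 ± 0.13 (0.011), the fructose bisphosphatase HCEF1 (AT3G54050) by 0.58 ± 0.12 (0.0138) and the ribose-phosphate isomerase EMB3119 (AT3G04790) by 0.56 ± 0.12 (0.014). Phosphoribulokinase PRK (AT1G32060) was at -0.42 ± 0.14 (0.0589), the aldolase FBA1 (AT2G21330) at -0.39 ± 0.12 (0.0516) and the transketolase TKL1 (AT3G60750) at -0.11 ± 0.11 (0.493). Without control 2 the calls of FBA2, HCEF1, EMB3119 and SBPASE were lost (0.056 to 0.0864), without control 1 those of FBA2 and HCEF1 (0.0613 and 0.0516), and without iron 1 those of HCEF1, EMB3119 and SBPASE (0.0506 to 0.0641). FBA2 also lost its call with no filter (0.0941) and under quantile normalization (-0.36, 0.19).

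In the reduction phase 2 of 6 genes fell in iron deficiency, where 6.85% of all genes were called lower. PGK1 (AT3G12780), a plastid phosphoglycerate kinase, stood at 951 and 1068 FPKM in controls, 967 and 926 without copper, 557 and 645 without iron and 471 and 525 without both (iron deficiency -0.75 ± 0.12, adjusted p = 0.00613). Its fall kept its call under all 15 alternative settings. The second plastid kinase gene PGK2 (AT1G56190) did not move with it: it stood at 131 and 136, 122 and 136, 134 and 155, and 100 and 102 FPKM, and was the one Calvin-Benson gene above control without iron (0.11 ± 0.10, 0.454), and under nuclear coding scaling this difference was called (0.30, 0.0336). GAPB (AT1G42970), a subunit of the NADPH-dependent glyceraldehyde-phosphate dehydrogenase, fell by 0.57 ± 0.13 (0.0195), and lost its call without control 1, control 2 or iron 1 (0.0642, 0.107 and 0.0676), with no filter (0.0793) or under quantile normalization (-0.41, 0.131). Of the genes for the other subunit, GAPA-2 (AT1G12900) was at -0.48 ± 0.16 (0.0644) and GAPA (AT3G26650) at -0.08 ± 0.14 (0.715). The triose-phosphate isomerase TIM (AT2G21170) was at -0.36 ± 0.12 (0.0583). CP12 proteins bind the dehydrogenase and PRK into an inactive complex in the dark. CP12-1 (AT2G47400) fell by 0.68 ± 0.16 (0.0219), not without control 1, control 2 or iron 1 (0.0608, 0.116 and 0.0752), with no filter (0.0897) or under quantile normalization (-0.42, 0.0863), and CP12-2 (AT3G62410) was at -0.16 ± 0.15 (0.44).

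Photorespiration genes went both ways. Without iron 5 of 16 fell and 3 rose, with a median of -0.23, or -0.50 relative to all genes. The share that fell lies above the 6.85% of all genes called lower, and the share that rose lies below the 27.2% called higher. The genes that fell encode the enzyme of the first step in the chloroplast, an aminotransferase of the peroxisome, the H-proteins GDCH and GLDH3 of glycine decarboxylase and the kinase of the last step. Those that rose are a glycolate oxidase and both genes for the P-protein of glycine decarboxylase. Without control 1 or control 2 the number called was 5 and 4, and a difference between the pathways was not tested.

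Phosphoglycolate phosphatase PGLP1 opens the pathway. It stood at 226 and 241 FPKM in controls, 225 and 287 without copper, 126 and 143 without iron and 122 and 134 without both (iron deficiency -0.80 ± 0.14, limma adjusted p = 0.00761). Glycolate oxidase, the hydrogen peroxide source of the pathway, is encoded by GOX1 (AT3G14420) and GOX2 (AT3G14415), which lie 377 bases apart on chromosome 3. GOX1 stood at 733 and 721, 719 and 816, 975 and 1152, and 1039 and 1203 FPKM, and GOX2 at 414 and 436, 402 and 430, 403 and 476, and 468 and 526 FPKM. GOX1 separates the libraries by iron, while the groups of GOX2 overlap between control and iron deficiency. GOX1 rose by 0.54 ± 0.13 (0.0241) and GOX2 was at 0.04 ± 0.12 (0.804), and the ratio of GOX2 to GOX1 was 0.566 and 0.605 in controls, 0.559 and 0.527 without copper, 0.414 and 0.413 without iron and 0.45 and 0.437 without both. The call of GOX1 was lost under median-ratio scaling (0.25, adjusted p = 0.198), with no filter (0.0887) and without control 1, control 2 or iron 2 (0.0884, 0.114 and 0.0965).

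The aminotransferases GGT1 and AGT supply glycine in the peroxisome. AGT (AT2G13360), the serine:glyoxylate aminotransferase, stood at 1042 and 1078 FPKM in controls, 1048 and 1145 without copper, 526 and 618 without iron and 502 and 577 without both. It fell by 0.89 ± 0.13 on the log2 scale (limma adjusted p = 0.00396), and its call held under all 15 alternative settings, as did that of PGLP1. The glutamate:glyoxylate aminotransferase GGT1 (AT1G23310) was at -0.26 ± 0.12 (0.146).

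Glycine decarboxylase is built from P-, T-, H- and L-proteins, and its genes moved apart. The P-protein gene GLDP1 (AT4G33010) stood at 510 and 452 FPKM in controls, 514 and 501 without copper, 882 and 917 without iron and 703 and 779 without both. GLDP2 (AT2G26080), the second P-protein gene, stood at 124 and 106, 120 and 125, 244 and 255, and 185 and 189 FPKM. In both genes the iron-deficient libraries were the highest and the doubly deficient ones came between them and the libraries with iron. The H-protein gene GLDH3 (AT1G32470) stood at 612 and 641, 621 and 689, 344 and 429, and 298 and 343 FPKM, and GDCH (AT2G35370), also an H-protein gene, at 509 and 549, 519 and 634, 323 and 356, and 290 and 344 FPKM. In iron deficiency GLDP2 rose by 1.12 ± 0.10 (adjusted p = 0.00077) and GLDP1 by 0.90 ± 0.11 (0.00212), both under all 15 alternative settings, while GLDH3 fell by 0.70 ± 0.14 (0.0116) and GDCH by 0.64 ± 0.14 (0.0162). The falls were lost without control 2 (0.0672 for GLDH3 and 0.0895 for GDCH), and that of GDCH also without control 1 or iron 1 (0.0503 and 0.0675). The T-protein gene GLDT (AT1G11860) was at -0.21 ± 0.13 (0.264).

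Ratios between these genes within a library show the same split without any scaling. The ratio of GLDH3 to GLDP1 was 1.2 and 1.42 in controls, 1.21 and 1.38 without copper, 0.39 and 0.468 without iron and 0.423 and 0.44 without both. The ratio of GDCH to GLDP1 was 0.998 and 1.21, 1.01 and 1.26, 0.366 and 0.388, and 0.412 and 0.442. The ratio of GLDT to GLDP1 was 1.25 and 1.43, 1.31 and 1.53, 0.575 and 0.664, and 0.609 and 0.63. All 4 libraries without iron lay below the 4 with iron in each ratio, and the iron-deficient and doubly deficient libraries lay near each other. The 2 P-protein genes kept close to each other, with GLDP2 at 0.233 to 0.279 of GLDP1 over the 8 libraries.

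**Figure D3:**
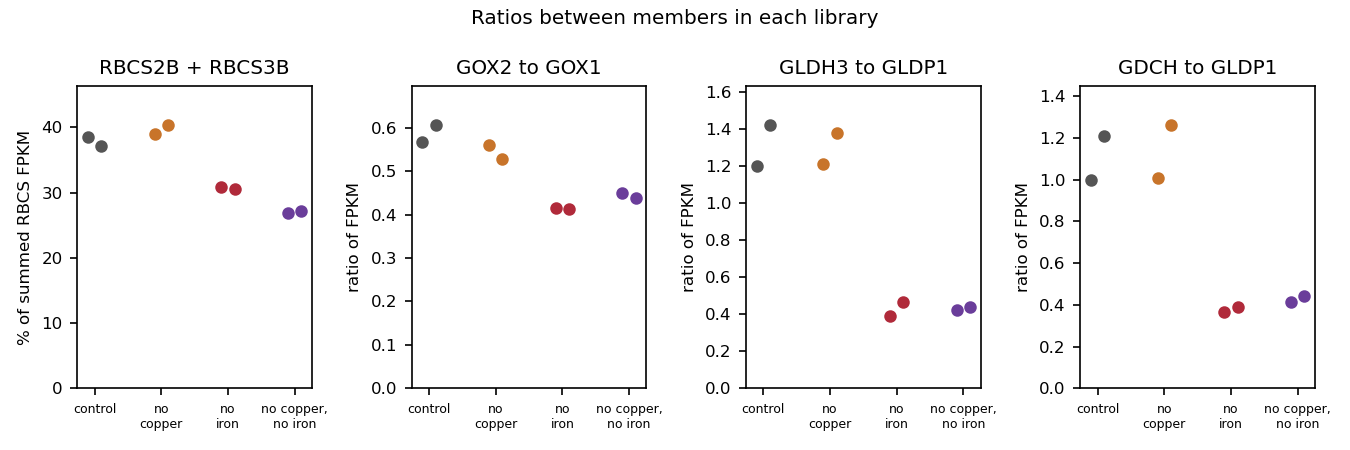
Share of RBCS2B and RBCS3B in the summed RBCS FPKM (%), and ratios of FPKM of GOX2 to GOX1, GLDH3 to GLDP1 and GDCH to GLDP1, in each of the 8 libraries. In every panel the 4 libraries without iron lie below the 4 with iron.

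Of the later steps, GLYK (AT1G80380), the glycerate kinase that returns carbon to the cycle, stood at 147 and 169 FPKM in controls, 147 and 192 without copper, 92.2 and 116 without iron and 104 and 120 without both. Its fall in iron deficiency was 0.60 ± 0.18 on the log2 scale (limma adjusted p = 0.042), the least firm of the calls, since it was lost on leaving out any control, iron or double library (0.0555 to 0.182), with no filter (0.0869) and under nuclear coding scaling (0.0767). The serine hydroxymethyltransferase SHM1 (AT4G37930) was at -0.26 ± 0.12 (0.153) and the hydroxypyruvate reductase HPR1 (AT1G68010) at 0.10 ± 0.13 (0.579). Of the plastid transporters, which carry dicarboxylates, and glycolate and glycerate, DIT2.1 (AT5G64290) was at -0.22 ± 0.08 (0.0714), the glycolate and glycerate transporter PLGG1 (AT1G32080) at -0.24 ± 0.15 (0.259) and DIT1 (AT5G12860) at 0.06 ± 0.09 (0.656).

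Without both metals 14 of 21 Calvin-Benson genes fell and 0 rose, and 8 of 16 photorespiration genes fell and 3 rose. Over all genes 5.99% were called lower and 39.2% higher in this comparison, which shares its controls with the other 2. The share of photorespiration genes that rose lies below that of all genes. The largest falls in the cycle were those of RPE (-1.24 ± 0.12, limma adjusted p = 0.000711), RBCS3B (-1.20 ± 0.17, 0.00268), PGK1 (-1.02 ± 0.12, 0.00147), FBA2 (-0.93 ± 0.13, 0.00239) and SBPASE (-0.83 ± 0.16, 0.00779). In photorespiration they were those of AGT (-0.98 ± 0.13, 0.00188), GLDH3 (-0.97 ± 0.14, 0.00266), PGLP1 (-0.86 ± 0.14, 0.00392), GDCH (-0.74 ± 0.14, 0.00704) and PLGG1 (-0.61 ± 0.15, 0.0191). GLDP2 (0.70 ± 0.10, 0.00235), GLDP1 (0.62 ± 0.11, 0.00467) and GOX1 (0.62 ± 0.13, 0.0116) rose, GLDP1 and GOX1 not under median-ratio scaling (0.23 and 0.345). Called here and not in iron deficiency were RCA, PGK2, TIM, FBA1, TKL1, GLDT, SHM1, DIT2.1 and PLGG1, while CP12-1 and GLYK were called in iron deficiency only. The step from iron to double deficiency was called for none of these 11 genes. The double-deficiency calls of PGK2, TIM, TKL1, GLDT and SHM1 were lost on leaving out any control or double library. That of FBA1 was lost without control 1, control 2 or double 1. With no filter TIM, FBA1, TKL1, GLDT and SHM1 lost theirs (limma adjusted p = 0.0523 to 0.171). Under nuclear coding scaling TKL1 and SHM1 did (0.0632 and 0.0536), and under quantile normalization SHM1 (0.507). Without control 1, control 2 or double 1 the Calvin-Benson number was 9, 7 and 5, with no filter it was 8, and the photorespiration number, 11 in all, was 7 without control 2. The calls of SBPASE without double 1 (0.0513), of PLGG1 without control 2 or double 1 (0.0968 and 0.106) and of GOX1 without control 1, control 2 or double 2 (0.0517 to 0.0727) were lost, and with no filter that of RBCS3B (0.254).

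The comparison of doubly deficient with copper-deficient leaves gives the effect of removing iron where copper was already missing, and it shares no library with iron deficiency against control. There 15 of 21 Calvin-Benson genes fell and 0 rose, and 10 of 16 photorespiration genes fell and 3 rose, where 6.4% of all genes were called lower and 39.4% higher. The medians relative to all genes were -0.97 and -0.79. RPE was again lowest (-1.24 ± 0.12, limma adjusted p = 0.00069), followed by RBCS3B (-1.16 ± 0.17, 0.00297), and GLDH3 (-1.03 ± 0.14, 0.00209) and AGT (-1.02 ± 0.13, 0.00157) were the lowest of photorespiration. GLDP2 (0.61 ± 0.10, 0.00369), GLDP1 (0.54 ± 0.11, 0.00756) and GOX1 (0.54 ± 0.13, 0.0184) rose, in each case not under median-ratio scaling (0.163, 0.52 and 0.614). Relative to the all-gene median these rises were 0.20, 0.14 and 0.14, and the share of photorespiration genes that rose lies below that of all genes. GLDP1 and GOX1 were also lost without double 2 (0.0549 and 0.105), and GOX1 without copper 1 (0.0764) or with no filter (0.0711). RBCS1A (-0.23 ± 0.21, 0.407) and RBCS1B (0.05 ± 0.21, 0.866) were not called, but RBCS1B was called higher under quantile normalization (0.76, 0.0281). Under that setting RBCS3B was at -0.50 and not called (0.102), and it also lost its call with no filter (0.272). Without double 1 the numbers called were 7 of 21 and 7 of 16, without double 2 the second was 8, and with no filter the first was 8.

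Across the 37 genes the differences in these 2 comparisons ran together (Pearson's r = 0.88, Spearman's rho = 0.83). Within the Calvin-Benson genes r was 0.74 and within the photorespiration genes 0.94, in each case across genes that share libraries and are not independent replicates. In 27 of 37 genes the value was lower where copper was missing, with a median difference of -0.14, while over all genes the median of the interaction was 0.14. The interaction, which tests this difference gene by gene, called 0 of 37 genes (limma, 3 at an unadjusted p of 0.05), where 0.193% of all genes were called lower and 0.396% higher. The lowest adjusted p was that of GLDP2 (-0.51 ± 0.14, 0.219), and the 95% intervals of the members lay between -1.03 (PLGG1) and 1.2 (RBCS1B).

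**Figure D4:**
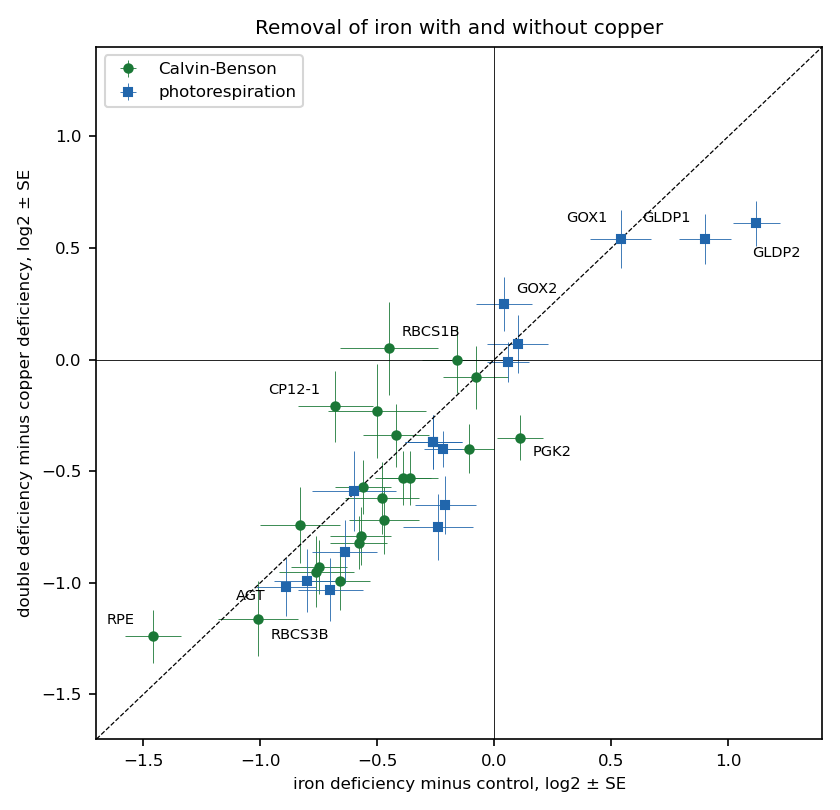
Log2 differences (± SE) on removal of iron with copper present (iron deficiency minus control) and with copper missing (double minus copper deficiency) for the 21 Calvin-Benson (circles) and 16 photorespiration genes (squares), with the dashed line of equal change. Most genes lie near or below the line, GLDP1 and GLDP2 lie to its right, and CP12-1 and RBCS1B above it.

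Removing copper from leaves already short of iron, which compares doubly deficient with iron-deficient libraries, called 0 of 37 genes by limma (5 at an unadjusted p of 0.05), where 0.198% of all genes were called lower and 0.939% higher. PGK2 came closest, at 134 and 155 FPKM without iron and 100 and 102 FPKM without both (-0.51 ± 0.10, adjusted p = 0.0813), and was called under median-ratio, quantile and nuclear coding scaling (0.0474, 0.0201 and 0.0484). GLDP2 followed (-0.42 ± 0.10, 0.0955), called under median-ratio and quantile scaling (0.0413 and 0.0334), and then DIT2.1 (-0.27 ± 0.08, 0.136), called under quantile scaling (0.0444). The 95% intervals of the members lay between -0.75 (PGK2) and 0.79 (RBCS1B).

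Genes around the 2 pathways can be read against the same shares of all genes, 6.85% called lower and 27.2% called higher without iron. Of 10 genes for Rubisco assembly 4 fell without iron and 0 rose, led by the chaperonin genes CPN20 (590 and 649 FPKM in controls, 288 and 332 without iron, -1 ± 0.13, limma adjusted p = 0.00332) and CPN60B1 (-0.67 ± 0.13, 0.00985; 0.0578 without control 2). Of 9 genes of the ferredoxin-thioredoxin system, which switches cycle enzymes on in the light, 3 fell and 0 rose. They included FTRA2, a subunit of the iron-sulfur enzyme ferredoxin-thioredoxin reductase (111 and 134 FPKM in controls, 29.9 and 36.7 without iron, -1.85 ± 0.16, 0.000771), and TRXM1 (-1.33 ± 0.09, 0.000348). The other reductase genes of the list were not called. FTRB stood at 139 and 158 FPKM in controls and 121 and 150 without iron, and FTRA1 at 36.2 and 35.2, then 30.5 and 43.9. Of 7 further Calvin-Benson genes the triose phosphate exporter TPT fell (-0.71 ± 0.12, 0.00696; 0.0531 without control 2) and CP12-3 rose (0.82 ± 0.09, 0.00181). The large subunit gene rbcL of the chloroplast genome stood at 194 FPKM in iron 1 and 3.58 to 18.3 FPKM in the other 7 libraries, a value that 1 library decides (1.73 ± 1.3, 0.345).

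Like the full set of genes tested, cytosolic counterparts of the cycle's enzymes, which serve glycolysis and sucrose synthesis, rose more often than they fell. Of 11 such genes 4 rose and 1 fell without iron, where 27.2% of all genes were called higher and 6.85% lower, and 8 rose and 1 fell without both, where 39.2% and 5.99% were. The cytosolic dehydrogenase GAPC1 stood at 371 and 369 FPKM in controls, 358 and 328 without copper, 778 and 856 without iron and 1012 and 1022 without both (iron deficiency 1.14 ± 0.10, limma adjusted p = 0.000707), and the isomerase RPI1 rose by 0.62 ± 0.15 (0.0223), not without control 2 or iron 2 (0.108 and 0.103) or under median-ratio or quantile scaling (0.0861 and 0.158). The cytosolic fructose bisphosphatase cyFBP, an enzyme of sucrose synthesis, fell by 0.57 ± 0.13 (0.0169), not without control 2 or iron 1 (0.094 and 0.0628). The median of this list relative to all genes was 0.07 without iron and 0.01 without both.

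Of 18 further photorespiration genes 7 rose and 2 fell without iron, against 27.2% of all genes called higher and 6.85% lower, and the median of the list relative to all genes was 0.11. GOX3, a glycolate oxidase gene known from roots, stood at 0.62 and 0.0499 FPKM in controls and 2.5 and 1.63 FPKM without iron (1.22 ± 0.32, limma adjusted p = 0.0288). Its call was lost without control 2, iron 1 or iron 2 (0.0629 to 0.129), with a pseudocount of 0.1 (2.69, 0.0601) and under median-ratio (0.0512) and quantile scaling (0.81, 0.0655). The gene mLPD2, for the L-protein of glycine decarboxylase, rose by 0.82 ± 0.09 (limma adjusted p = 0.00212). It stood at 27.9 and 26.4 FPKM in controls and 46.2 and 51 without iron, far below mLPD1 (209 and 210, then 150 and 167). GLDH2, a further H-protein gene, stood at 35.9 and 28 FPKM in controls and 28 and 27.7 without iron and was not called. The falls were those of PGLP1B (-0.79 ± 0.14, 0.00881), whose coding sequence is that of PGLP1, and of the second L-protein gene mLPD1 (-0.40 ± 0.09, 0.0185), the first lost without control 2 (0.0549) and the second without control 1, control 2 or iron 1 (0.0684 to 0.093) or under nuclear coding scaling (-0.21, 0.0808). GLU1, the ferredoxin-dependent glutamate synthase that recovers photorespiratory ammonia and carries an iron-sulfur cluster, stood at 254 and 229 FPKM in controls, 252 and 260 without copper, 309 and 317 without iron and 186 and 204 without both. It rose without iron (0.38 ± 0.09, 0.0238) and was lower in doubly than in singly iron-deficient leaves (-0.68 ± 0.09, 0.0338), with an interaction of -0.77 that was not called (0.0972). The rise was lost without control 2, iron 1 or iron 2 (0.0598 to 0.145) and under median-ratio scaling (0.08, 0.548), and the fall without any one library but copper 1 (0.0508 to 0.297), with no filter (0.0504) and with the replicate block (0.0621). GLU1 is singled out after its values were seen.

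**Figure D5:**
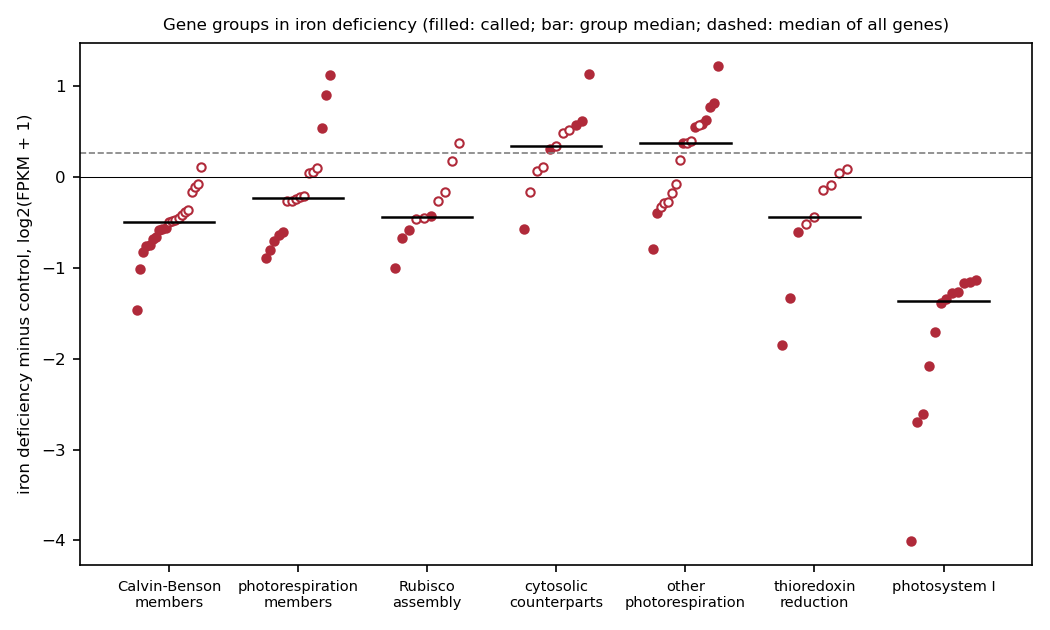
Log2 difference between iron deficiency and control for each gene of the 2 pathways and of 5 related lists, with filled points for called genes, bars for list medians and a dashed line for the all-gene median of 0.27. Photosystem I lies lowest (median -1.36), and the cytosolic counterparts lie around the all-gene median.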

How the data were processed

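Messenger RNA of rosette leaves was sequenced from unstranded libraries, per the labels' protocols, so transcripts of opposite strands cannot be told apart. Trimmomatic, TopHat2 2.1.1, Cufflinks and Cuffdiff are listed in the submitters' processing notes, with genome build and annotation not given in the sources used here. For every gene the authors deposited FPKM with a lower and an upper bound, in the Cufflinks tracking format, per the file headers. Each library lists 38093 entries with 38088 distinct identifiers. Of the entries 99.2% were found in the RefSeq annotation of TAIR10.1, of these 99.93% with identical coordinates, including all 37 members, so gene positions and sequences were read there. Entries with at least 1 FPKM in at least 2 libraries (19171, all 37 members among them) were tested on log2(FPKM + 1), a scale that understates changes of low genes, with limma 3.58.1 in R 4.3.3. The model held the 4 groups and used an intensity trend, and p-values were adjusted over all entries by Benjamini and Hochberg. Called means an adjusted p under 0.05, and rose and fell are used of called genes. Errors of log2 differences are standard errors with 4 residual degrees of freedom before moderation. The 6 contrasts were each deficiency against control, double against each single deficiency, and the interaction, and comparisons with control share its 2 libraries. Relative depth was read from the bounds of 10806 genes under a Poisson model, so total reads are not known. The 15 alternatives were a pseudocount of 0.1, no filter, a filter of 5 FPKM, 3 scalings, a replicate block and the omission of each library. Coding sequences were aligned with Biopython 1.88. The procedure was also run on simulated data with independent noise for each gene and changes placed in the iron group only. That run does not cover a shift of the all-gene median such as these data show, and no result above rests on it. All 37 members may be named. For each comparison up to 5 falls and 5 rises are given per pathway, library values are given for the RBCS genes, RCA, the GOX pair and the 3 largest changes of each pathway and direction in iron deficiency, and further values were added after they were seen. From other lists the 2 largest called changes in each direction are named. The members and lists were chosen with earlier results of these data known.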

Additional observations from a re-analysis of the deposited data

How the results depend on the processing

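The number of libraries per group, 2, limits every statement. In copper deficiency, in copper removal from iron-starved leaves and in the interaction, 0 members of either pathway were called under any omission of a library or with the replicate block. In copper removal from iron-starved leaves, however, 1 Calvin-Benson member was called under median-ratio, quantile and nuclear coding scaling, and 1 and 2 photorespiration members under the first and second of these. With one library left out, the number of Calvin-Benson members called ranged from 2 to 14 in iron deficiency, 5 to 15 in double deficiency and 7 to 15 on iron removal from copper-starved leaves. For photorespiration it ranged from 4 to 8, 7 to 13 and 7 to 13. Over all genes the numbers called also moved with the library left out. With no filter on low values the Calvin-Benson numbers were 5, 8 and 8, where 1040, 948 and 977 of 33459 genes were called lower. Under median-ratio scaling the first was 18, where 2776 of 19092 genes were called lower. RPE and PGK1 in the cycle, and PGLP1, AGT, GLDP1 and GLDP2 in photorespiration, kept their iron-deficiency calls in all 15 settings.

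The median relative to all genes kept its sign in iron and double deficiency. With one library left out it ranged from -0.93 to -0.69 for the Calvin-Benson members in iron deficiency, from -1.07 to -0.81 in double deficiency, and from -0.93 to -0.74 for photorespiration in double deficiency. With no filter it was -0.54, -0.62 and -0.66 for the Calvin-Benson members in iron deficiency, double deficiency and iron removal from copper-starved leaves, and -0.28, -0.54 and -0.48 for photorespiration. Under quantile normalization it was -0.30, -0.58 and -0.47, and -0.15, -0.46 and -0.49, and -0.13 for the Calvin-Benson interaction. Under nuclear coding scaling PGK2 was called higher in iron deficiency (0.30, limma adjusted p = 0.0336), and under quantile normalization RBCS1B was called higher on iron removal from copper-starved leaves (0.76, 0.0281). RBCS2B reversed on iron removal from copper-starved leaves under quantile normalization (0.07, limma adjusted p = 0.782). The cause was not tested. The iron-deficiency median of all genes was 0.27, 0.01 under median-ratio scaling, -0.03 under quantile normalization and 0.43 under nuclear coding scaling. The numbers called lower and higher were 1314 and 5218, 2776 and 2784, 2694 and 2652, and 966 and 7886, so the rises of GOX1, GLDP1 and GLDP2 are read relative to a scale that these choices move, and their sign held in each.

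Over all genes tested, same-numbered libraries deviated from their group means with correlations of -0.04 to 0.02, and the labels do not say that the numbers mark a batch. The 37 members did lean one way, with library 2 above library 1 in 28 of them in control, 24 in copper, 37 in iron and 35 in double deficiency. With the number as a replicate block the Calvin-Benson members called were 14 in iron deficiency, 16 in double deficiency and 16 on iron removal from copper-starved leaves, and the photorespiration members 8, 13 and 13. Of all 19171 genes 1368, 1178 and 1254 were called lower and 5024, 7348 and 7355 higher in the same order.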
